A study of Mus musculus with 8 samples.

Results

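The genes described are those of the cytosolic ribosomal proteins, 83 of the 24982 gene symbols in the deposited count table. They were taken by symbol: Rpl or Rps followed by a number, with Rplp0, Rplp1, Rplp2 and Rpsa added, and with Rpl22, Rpl22l1 and symbols ending in -ps left out. By name, 50 of the 83 belong to the large and 33 to the small subunit. A total of 77 (45 large, 32 small) had enough reads to be tested. The libraries come from mouse liver and are labelled as myeloid cells. RNA bound to tagged ribosomes was to be isolated with RiboTag, an allele in which Cre recombinase switches the ribosomal protein gene Rpl22 to a form with an HA tag. All 8 libraries carry the Ribotag allele and LysM-Cre. The LysM promoter drives Cre in myeloid cells, that is, in neutrophils, monocytes and macrophages. There are 4 groups of 2 libraries. These are LysM-Cre:Ribotag controls, LysM-Cre:Ribotag after 17 days of bile duct ligation, LysM-Cre:Hmoxflfl:Ribotag controls, and LysM-Cre:Hmoxflfl:Ribotag after 17 days of bile duct ligation. Bile duct ligation (BDL) is a surgical model of cholestatic liver fibrosis. Groups without the floxed Hmox1 allele are called wild type below, and the others labelled HO-1 deleted, after heme oxygenase-1, the protein Hmox1 encodes. The labels give no ages and do not say how controls were handled. They do not say that libraries came from separate animals, so p-values may measure only technical spread outside the wild-type BDL group. The 2 libraries of that group differed in the female transcript Xist, with levels given below, so their spread includes a difference in sex. The questions are whether the ribosomal protein genes changed with BDL, with the labelled deletion, or differently with BDL in the labelled deletion.

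A ribosome is built from ribosomal RNA and one copy of most of its proteins, which are imported into the nucleolus and assembled there into a large and a small subunit. Their mRNAs are among the best known carriers of the terminal oligopyrimidine (TOP) motif, a C at the first base followed by an unbroken run of C and T (U in the RNA). Through it, mTORC1 signalling and the protein Larp1 set how fast these mRNAs are translated as a group. Proteins made in excess of ribosomal RNA are degraded, and unassembled Rpl5 and Rpl11 bind Mdm2, which ties ribosome assembly to p53. Since RiboTag pulls down ribosomes, the ribosomal protein mRNAs measured here are those that travelled with tagged ribosomes or with other material in the precipitate.

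The libraries held 9807364 to 40892211 counts, of which 10.3% to 66.8% were assigned to Rn45s, the gene of the ribosomal RNA precursor. These counts do not tell reads of the precursor from reads of mature ribosomal RNA. Levels are given as CPM, counts divided by library sizes that edgeR scaled by the trimmed mean of M-values. Hmox1 went against the labels. It was at 6.22 and 7.46 CPM in wild-type controls and at 22.5 and 29.9 CPM in controls labelled HO-1 deleted (edgeR log2 fold change 1.94 ± 0.24 SE, adjusted p = 0.0043). After BDL it was at 26.0 and 24.0 against 72.3 and 95.5 CPM (1.74 ± 0.24, adjusted p = 0.0191). The counts cover whole genes and the labels do not say which exons are floxed, so they do not check the deletion itself. The defining markers of hepatocytes (10 of 10 genes measured) summed to 25022 to 49613 CPM in the 8 libraries. Those of Kupffer cells, the macrophages of the liver (7 of 7), summed to 184 to 768 CPM, less than the hepatocyte markers in every library. One wild-type BDL library, replicate 1, held 667 CPM of the female transcript Xist, against at most 0.382 CPM in the other 7.

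The TOP-like starts are shown first because they are the sequence feature by which these genes are known to act as a group. RefSeq promoter entries (build GRCm38.p6) matched 62 of the 83 genes at 73 start sites. A run of at least 8 bases made only of C and T, on the transcribed strand and within 30 bases of a start, was present in 35 of the 62 genes (56.5%), against 6965 of 27025 genes with an entry (25.8%). A C at the start base followed by at least 4 more C or T was present in 14 of the 62 (22.6%), against 813 of all genes (3.01%). Each window below runs from 15 bases before the start through the first 15 bases of the transcript, and capitals mark its longest run of C and T. The first 6 are genes described below that rose after BDL, and of these Rplp0 has no long run near its RefSeq start. Rps6 carries a run and did not pass the test, and Rpl32l is the pseudogene that fell.
Rps18 (chr17:33955651-33955680, minus strand): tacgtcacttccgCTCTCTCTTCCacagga
Rps10 (chr17:27635230-27635259, minus strand): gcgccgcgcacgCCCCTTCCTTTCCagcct
Rplp2 (chr7:141447636-141447665, plus strand): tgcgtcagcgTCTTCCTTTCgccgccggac
Rpl28 (chr7:4792950-4792979, plus strand): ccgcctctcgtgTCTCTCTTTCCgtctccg
Rpl38 (chr11:114668565-114668594, plus strand): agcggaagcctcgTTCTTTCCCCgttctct
Rplp0 (chr5:115559452-115559481, plus strand): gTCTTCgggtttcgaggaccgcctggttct
Rps6 (chr4:86857353-86857382, minus strand): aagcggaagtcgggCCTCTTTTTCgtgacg
Rpl32l (chr10:20208424-20208453, plus strand): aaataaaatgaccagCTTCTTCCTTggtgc

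As a pool, the 83 genes made up less than 1% of all counts outside Rn45s. Their share was 0.404% and 0.491% in the wild-type controls, 0.637% and 0.415% in the wild-type BDL libraries, 0.303% and 0.320% in the controls labelled HO-1 deleted, and 0.598% and 0.630% in the BDL libraries labelled HO-1 deleted. The labelled HO-1 deleted groups did not overlap, and the wild-type groups did. Wild-type BDL replicate 1 stood with the BDL libraries labelled HO-1 deleted while replicate 2 stood with the wild-type controls. The ratio of large- to small-subunit counts stayed between 1.45 and 1.79 over the 8 libraries. The share of Rn45s in the same order of groups was 10.3% and 17.7%, 37.1% and 18.8%, 55.6% and 22.6%, and 38.6% and 66.8%. It overlapped between control and BDL in the labelled HO-1 deleted groups, and its part in the results was tested only as a covariate.

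**Figure D1:**
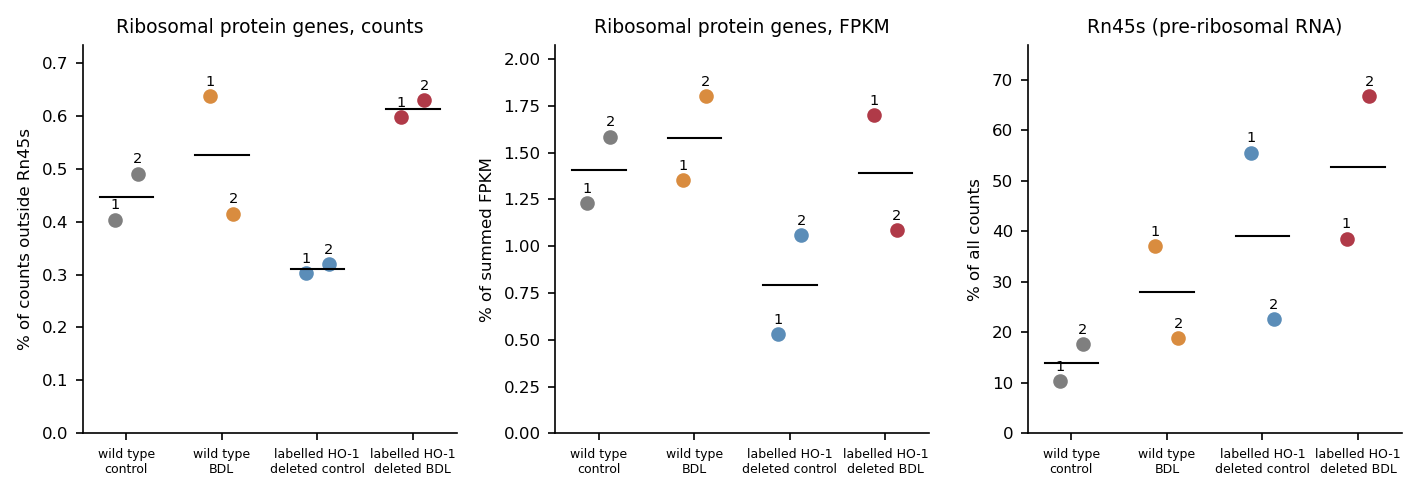
Share of the 83 ribosomal protein genes in the counts outside Rn45s (left, %), their share of the summed FPKM (middle, %) and the share of Rn45s in all counts (right, %), by group. Each point is a library with its replicate number and each line the mean of 2. The left panel separates the labelled HO-1 deleted control libraries (0.303% and 0.320%) from the BDL libraries (0.598% and 0.630%), and the middle panel places the libraries in another order.

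After BDL in the libraries labelled HO-1 deleted, ribosomal protein genes of both subunits were higher. With edgeR's quasi-likelihood test and a threshold of adjusted p under 0.05 over all 14147 genes tested, 38 of the 77 genes rose, 22 of 45 in the large and 16 of 32 in the small subunit, and 1, the pseudogene Rpl32l, fell. Over all genes tested, 15.1% rose and 12.4% fell in the same comparison, so the 49.4% of ribosomal protein genes that rose was above the background. Their median log2 fold change was 1.003, against -0.03 over all genes, and it was 1.003 in the large and 1.02 in the small subunit. In 63 of the 77 both BDL libraries stood above both controls, which held for 31.9% of all genes. The count of genes that rose was 0 when libraries were scaled by total counts, Rn45s included, and 0 in limma fits of the deposited FPKM values (fragments per kilobase, scaled by mapped fragments). Under total-count scaling the median of all genes itself shifted to -0.31 and the median of the ribosomal protein genes stood 0.97 above it. With the Rn45s share as a covariate, 25 of the 38 still passed. The median of the ribosomal protein genes was then 0.77, against -0.02 over all genes. Without control replicate 1, control replicate 2 or BDL replicate 2 of the labelled HO-1 deleted groups, 8, 16 and 12 of the 77 rose.

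The stalk of the large subunit is made of Rplp0, which anchors it, and Rplp1 and Rplp2, which recruit elongation factors. Rplp0 was at 35.4 and 32.9 CPM in controls and at 94.4 and 134 CPM after BDL in the libraries labelled HO-1 deleted. This was a log2 fold change of 1.74 ± 0.31 (SE, edgeR adjusted p = 0.0023), the largest among the large-subunit genes that rose. Rplp2 went from 12.1 and 19.4 to 31.2 and 52.7 CPM (1.39 ± 0.32, adjusted p = 0.009), and Rplp1 from 17.2 and 25.2 to 38.03 and 60.04 CPM (1.19 ± 0.26, adjusted p = 0.0074). All 3 stalk genes therefore rose, with no overlap between control and BDL libraries. In the wild type, the same genes had log2 fold changes of 0.28 ± 0.30, 0.12 ± 0.31 and 0.17 ± 0.26, and none passed (adjusted p = 0.575 to 0.835).

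Other large-subunit genes moved by about as much. Rpl13 was at 19.3 and 15.7 CPM in the controls and at 41.6 and 43.4 CPM after BDL in the libraries labelled HO-1 deleted (1.28 ± 0.22, adjusted p = 0.0018), and Rpl36 was at 10.9 and 9.14 against 25.6 and 22.6 CPM (1.28 ± 0.27, adjusted p = 0.0054). In both genes the 2 BDL libraries lay close together and well above every control. Rpl5, which binds the smallest ribosomal RNA of the large subunit together with Rpl11, rose (18.7 and 23.2 against 54.2 and 48.3 CPM, 1.29 ± 0.41, adjusted p = 0.041), whereas Rpl11 did not pass (18.6 and 28.03 against 25.1 and 29.9 CPM, 0.23 ± 0.37, adjusted p = 0.674). Rpl28 and Rpl38, whose starts are printed above, rose by 1.04 ± 0.24 (adjusted p = 0.0095) and 1.11 ± 0.29 (adjusted p = 0.0143).

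Small-subunit genes moved by similar amounts. Rps18 was at 33.6 and 26.0 CPM in controls and at 73.6 and 88.0 CPM after BDL in the libraries labelled HO-1 deleted (1.44 ± 0.31, adjusted p = 0.006), and Rps19, which is needed to mature the ribosomal RNA of the small subunit and is mutated in Diamond-Blackfan anaemia, at 12.8 and 12.5 against 29.2 and 33.2 CPM (1.30 ± 0.24, adjusted p = 0.0027). Both genes were separated between control and BDL. Rps10, one of the proteins that is marked with ubiquitin when ribosomes collide, rose by 1.14 ± 0.25 (6.24 and 8.17 against 14.97 and 17.3 CPM, adjusted p = 0.0062). Rpsa, also known as the laminin receptor, and Rps6, the substrate of S6 kinase, did not pass, at 42.5 and 44.2 against 54.5 and 68.9 CPM (0.50 ± 0.24, adjusted p = 0.132) and 17.3 and 23.3 against 24.3 and 28.4 CPM (0.37 ± 0.30, adjusted p = 0.388).

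**Figure D2:**
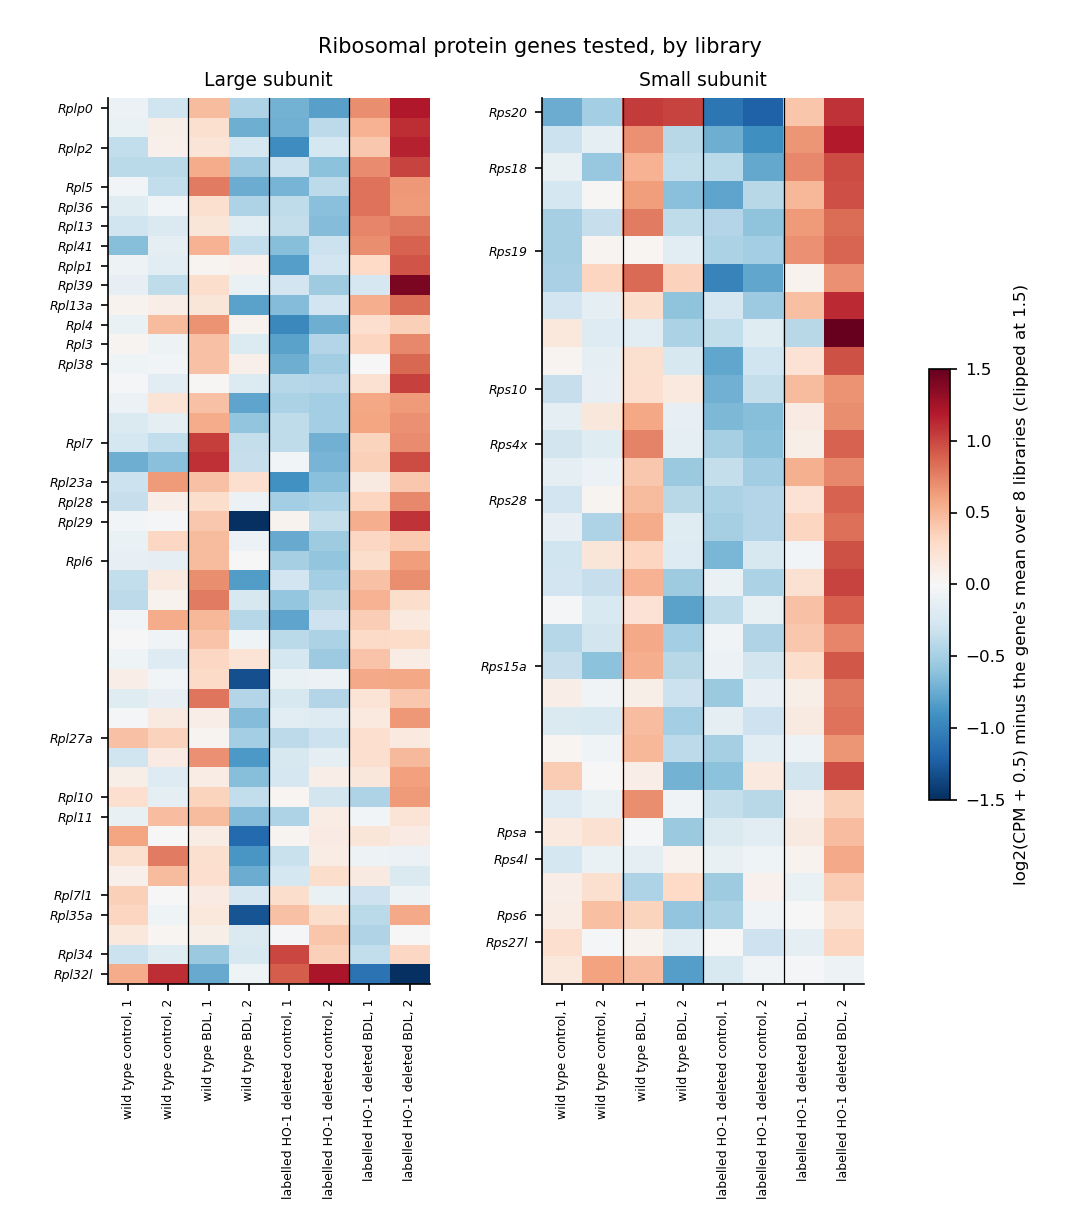
Levels of the 77 tested ribosomal protein genes in each of the 8 libraries, as log2(CPM + 0.5) minus the mean of the gene over the libraries; red is above and blue below the mean. Genes are ordered by their BDL fold change in the libraries labelled HO-1 deleted, some are named, and the column of wild-type BDL replicate 1 is mostly red where that of replicate 2 is mostly blue.

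In the wild type, 1 of the 77 genes (Rps20) rose after BDL and 1 (Rpl32l) fell, below the 11.8% of all genes that rose and the 6.59% that fell. The median log2 fold change was 0.14, against 0.02 over all genes, and 49 of the 77 estimates were above 0. Control and BDL libraries did not overlap in 12 genes that were higher and in 3 that were lower after BDL, against 31.5% and 29.8% of all genes. The 2 wild-type BDL libraries differed in nearly every gene of the group: 72 of the 77 were higher in replicate 1, by a median of 0.81 on the log2 scale, while 50.1% of all genes were higher there. The median log2 fold change of the 77 was -0.29 without replicate 1, which holds the female transcript, and 0.45 without replicate 2. Over all genes it was 0.01 and -0.01 in these fits, which leave 1 library in the group. Replicate 1 was higher in 12 of 77 genes in the BDL libraries labelled HO-1 deleted, and in 31 and 35 of 77 in the wild-type and labelled HO-1 deleted controls.

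Rps20, a small-subunit head protein, was the one gene of the 77 that rose after BDL in both genotypes. It was at 19.6 and 23.0 CPM in wild-type controls and 68.6 and 66.9 CPM after BDL (1.67 ± 0.25, adjusted p = 0.0011), and at 15.3 and 13.9 against 44.2 and 70.2 CPM in the libraries labelled HO-1 deleted (1.96 ± 0.25, adjusted p = 0.0004). All 4 BDL libraries stood above all 4 controls, and the 2 wild-type BDL libraries lay close together in this gene although they differed in most of the others. Its deposited FPKM, a value per transcript length, was 4.58 and 5.44 against 13.3 and 13.8 in the wild type and 1.72 and 2.71 against 9.44 and 6.04 in the libraries labelled HO-1 deleted. Rps20 did not pass in either genotype under total-count scaling or in the limma fits of FPKM. The annotated exons of the gene (chr4:3831334-3835665, mm10, minus strand) overlap a snoRNA, Gm24016, so counts over it may include reads of that snoRNA. The annotated transcript used here for its length has 3706 bases.

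Rpl32l, the other gene that changed in both genotypes, is annotated as a processed pseudogene (chr10:20208490-20208888, plus strand) within Map7 on the same strand. Its counts were 70 and 107 in wild-type controls, 20 and 23 after BDL, 69 and 179 in controls labelled HO-1 deleted, and 9 and 0 after BDL there. The log2 fold changes were -1.67 ± 0.50 (adjusted p = 0.0365) and -3.58 ± 0.64 (adjusted p = 0.0024), and the BDL libraries lay below the controls in both genotypes. Map7, in which it lies, went from 57.1 and 65.8 to 58.8 and 69.5 CPM in the wild type (0.06 ± 0.23, adjusted p = 0.883) and from 50.9 and 69.0 to 74.7 and 73.8 CPM in the libraries labelled HO-1 deleted (0.31 ± 0.23, adjusted p = 0.336). The fall in the wild type did not pass under 11 of the 19 alternative settings that could test it.

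**Figure D3:**
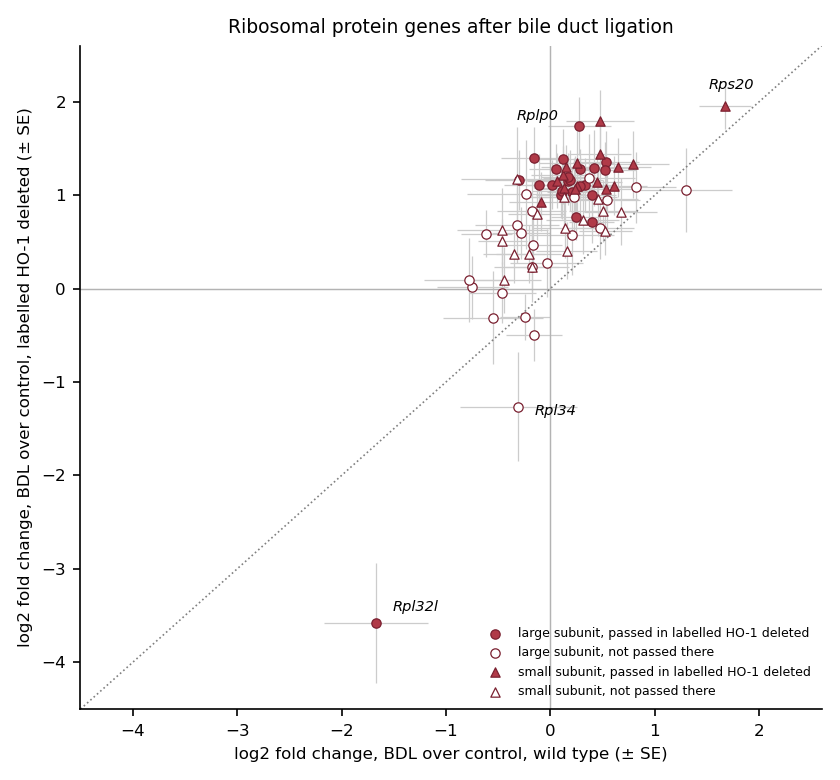
Log2 fold change after BDL of the 77 tested genes in the wild type (horizontal) and in the libraries labelled HO-1 deleted (vertical), with standard errors; filled symbols passed edgeR's test in the latter, and the dotted line marks equal change. Of the 77 points, 72 lie above the dotted line, and Rps20 and Rpl32l stand apart from the rest.

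Averaged over both genotypes, 40 of the 77 genes rose with BDL and 1, Rpl32l, fell, against 21.4% and 17.8% of all genes. The median log2 fold change was 0.58, against -0.03 over all genes. Genes with small adjusted p included Rps20 (1.81 ± 0.18, adjusted p = 2.3e-05), Rpl13 (0.78 ± 0.15), Rplp0 (1.01 ± 0.21), Rps10 (0.80 ± 0.17), Rps18 (0.96 ± 0.22) and Rps19 (0.72 ± 0.17), with adjusted p from 0.0021 to 0.0055 in edgeR for those after Rps20. When each of the 8 libraries was left out in turn, 14 of the 40 were called every time, among them Rps20, Rplp0, Rpl13 and Rps19. The count of genes that rose was 19 without wild-type control replicate 1, 25 without wild-type control replicate 2, 19 without wild-type BDL replicate 1, 18 and 22 without replicates 1 and 2 of the controls labelled HO-1 deleted, and 19 without BDL replicate 2 labelled HO-1 deleted; it was 1 under total-count scaling, 1 or 2 in the FPKM fits, and 14 with the Rn45s share as a covariate.

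**Figure D4:**
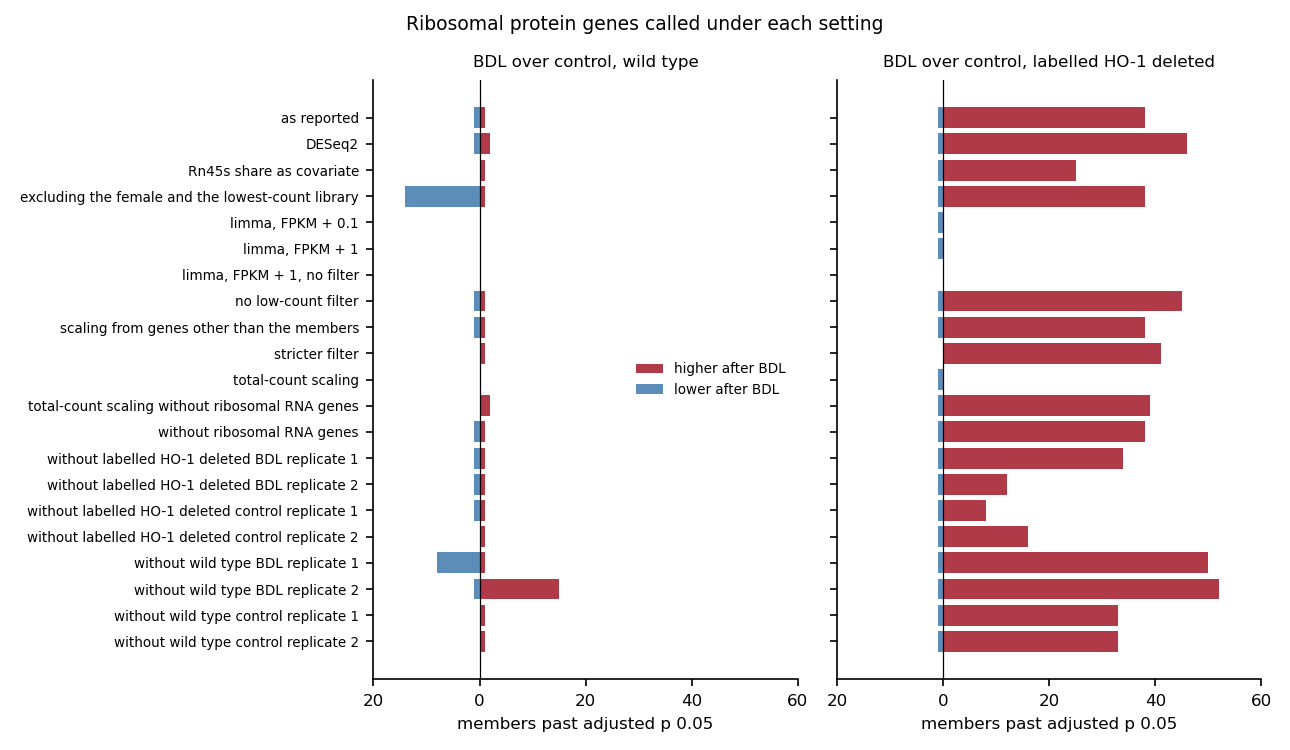
Number of the tested ribosomal protein genes past an adjusted p of 0.05 (horizontal axis, higher after BDL to the right of 0, lower to the left) under the reported fit and 20 other settings, in the wild type (left) and in the libraries labelled HO-1 deleted (right). In the right panel the count that rose is 38 as reported and falls to 0 with total-count scaling and with FPKM.

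Whether BDL acted differently in the 2 genotypes was tested as an interaction. In 72 of the 77 genes the estimated change after BDL was higher in the libraries labelled HO-1 deleted, with a median difference of 0.81 on the log2 scale against -0.02 over all genes. In edgeR 0 of the 77 passed after adjustment, where 0.00707% of all genes passed, and DESeq2 called 0. An unadjusted p under 0.05 in edgeR was found for 25 of the 77, against 1316 of all 14147 genes. Among the genes with the smallest p-values were Rps19 (difference 1.16 ± 0.33) and Rplp0 (1.46 ± 0.43), both with adjusted p = 0.384. The median difference was 1.21 without wild-type BDL replicate 1 and 0.42 without wild-type BDL replicate 2, fits that leave 1 library in that group.

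Between the control groups, the ribosomal protein genes had a median log2 fold change of -0.32 in the libraries labelled HO-1 deleted relative to the wild type, against 0.03 over all genes. It was -0.58 with the Rn45s share as a covariate, -0.85 under total-count scaling and -1.11 to -1.16 in the FPKM fits. The median of all genes itself shifted to -0.51 under total-count scaling and to between -0.22 and -0.69 in the FPKM fits. Relative to all genes, the median was -0.35 as reported, -0.62 with the covariate and -0.34 under total-count scaling. In the FPKM fits this relative median was -0.46 to -0.88. None of the 77 passed in edgeR, where 0.191% of all genes did, and DESeq2 called 1 lower. An unadjusted p under 0.05 in edgeR was found for 10 of the 77, against 968 of all 14147 genes. Both libraries labelled HO-1 deleted lay below both wild-type libraries in 44 genes, against 21.4% of all genes. Rpl23a (29.1 and 57.1 against 19.1 and 23.5 CPM, -1.01 ± 0.29, adjusted p = 0.412), Rpl4 (399 and 594 against 218 and 256 CPM, -1.06 ± 0.32, adjusted p = 0.456) and Rpl27a (14.4 and 13.5 against 7.91 and 8.36 CPM, -0.78 ± 0.25, adjusted p = 0.483) had the smallest p-values. These 3 large-subunit genes were separated between the groups, but by less than the test required.

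After BDL the difference had the other sign, with a median of 0.43 in the libraries labelled HO-1 deleted relative to the wild type, against -0.01 over all genes; it was negative in 4 of 20 alternatives, -0.24 under total-count scaling and -0.09 in the FPKM fits. Relative to the median of all genes it ranged from 0.04 (FPKM + 1, unfiltered) to 0.85 (without wild-type BDL replicate 1), and it was 0.06 without wild-type BDL replicate 2. Again 0 of 77 genes passed in edgeR and 0 in DESeq2, where 0.0636% of all genes passed in edgeR. An unadjusted p under 0.05 in edgeR was found for 17 of the 77, against 1670 of all 14147 genes. In 26 genes both libraries labelled HO-1 deleted stood above both wild-type libraries, against 17.8% of all genes. The smallest p-values were those of Rps19 (0.86 ± 0.24, adjusted p = 0.248) and Rpl13 (0.75 ± 0.22, adjusted p = 0.266). Averaged over control and BDL, the median difference between genotypes was 0.07 (-0.60 to 0.29 over the alternatives, above 0 in 12 of 20) and 0 of 77 genes passed in edgeR (0.311% of all genes did) or DESeq2. An unadjusted p under 0.05 in edgeR was found for 5 of the 77, against 1345 of all 14147 genes. The 5 were led by Rpl23a (-0.55 ± 0.21, adjusted p = 0.432) and Rpl4 (-0.58 ± 0.23, adjusted p = 0.455).

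Summed markers of several cell types were higher after BDL. Those of bile duct cells (cholangiocytes, 6 of 6 genes measured) summed to 34.3 and 23.0 CPM in wild-type controls, 497 and 201 after BDL, 24.4 and 31.3 in controls labelled HO-1 deleted, and 439 and 1137 after BDL there. Those of stellate cells and fibroblasts (7 of 7) summed to 181 and 175, 1253 and 1181, 152 and 260, and 2179 and 3053 CPM in the same order, and among the myeloid cells that the libraries are labelled as, those of monocytes (6 of 6) to 73.9 and 73.6, 197 and 124, 58.6 and 79.0, and 180.5 and 252 CPM. Kupffer cell markers summed to 234 and 184, 428 and 314, 236 and 323, and 408 and 768 CPM, and those of neutrophils (6 of 6) to 5.59 and 6.91, 30.2 and 20.6, 8.68 and 8.26, and 39.0 and 28.4 CPM. In all 5 lists both BDL libraries stood above both controls in each genotype. None of these genes was at 0 in both libraries of any group. Wild-type BDL replicate 1, the library with the higher ribosomal protein share, also held more marker RNA of each of these lists than replicate 2. So it did for hepatocytes (42516 against 33996 CPM), sinusoidal endothelial cells (417 against 279 CPM), B and plasma cells, and T and NK cells. Erythroid markers (4.12 against 4.91 CPM) and proliferation markers (84.4 against 185 CPM) were lower there. The part of these cell types in the ribosomal protein results was not tested. In these bulk libraries a change in the number of cells of a type and a change in RNA per cell cannot be told apart.

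Compared per transcript length, as deposited FPKM, the highest means over the 8 libraries included those of Rpl4 (192), Rpl41 (160), Rpl38 (130) and Rpl13a (104). Rpl4, a large-subunit protein lining the exit tunnel, alone took 11.2% to 19.3% of the counts of all 83 genes, with its lowest FPKM of 54.7 in control replicate 1 labelled HO-1 deleted and its highest of 336 in wild-type control replicate 2. The lowest means among tested genes were those of Rps15a (0.809), Rpl34 (1.86), Rpl32l (2.50), Rps4l (3.21) and Rpl7l1 (3.66). Rps15a was at 4.69 to 14.6 CPM, and its annotated transcript used here has 5179 bases, against a median of 886 over the 83 genes. The part of this length in its FPKM was not tested. FPKM values ranked the libraries differently from counts: the FPKM share of the 83 genes was 0.530% in control replicate 1 labelled HO-1 deleted and 1.80% in wild-type BDL replicate 2. It was 1.09% in BDL replicate 2 labelled HO-1 deleted, where Rn45s took its largest share of counts (66.8%). Rn45s itself was listed at an FPKM of 0 in all 8 libraries.

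**Figure D5:**
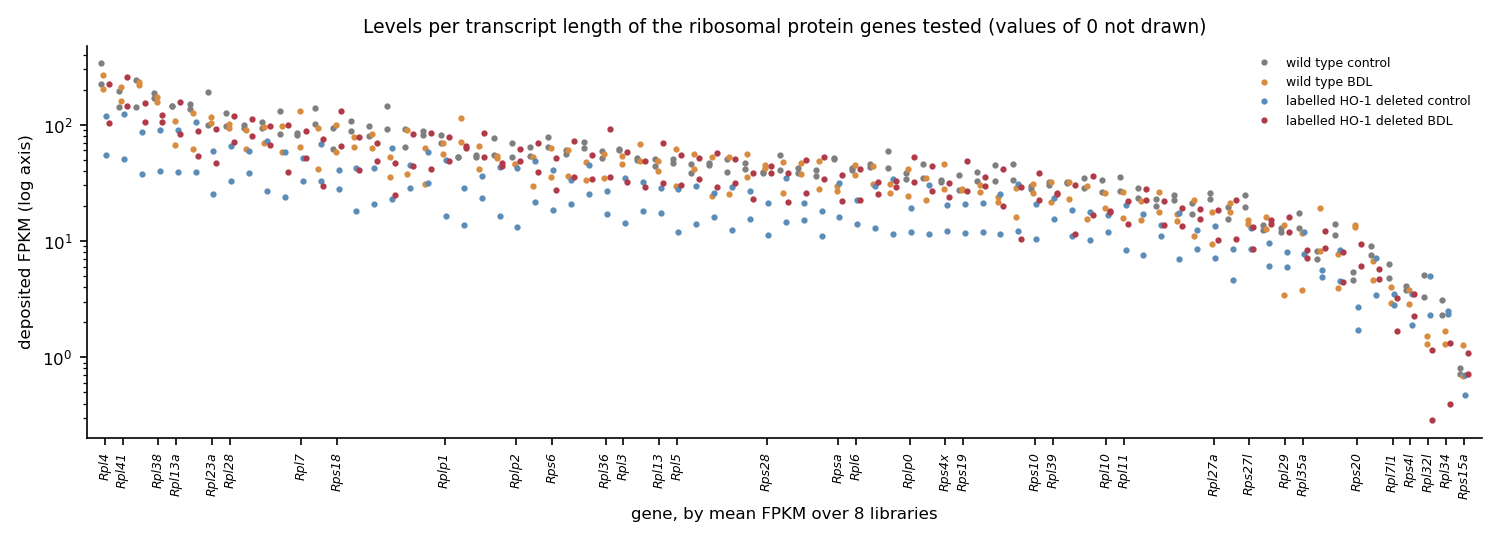
Deposited FPKM (log axis) of the 77 tested genes in each library, coloured by group and ordered by the mean over the 8 libraries, with some genes named. Means run from 192 for Rpl4 to 0.809 for Rps15a, and the points of the controls labelled HO-1 deleted lie low in most genes.

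The proteins of a ribosome are present in similar number, but the counts of their genes were not. Rpl26 had 0 counts in all 8 libraries, Rpl30 0 to 5 and Rps27 0 to 9, and these 3 core genes were not tested; their FPKM reached 1.93, 2.33 and 0.741. Rpl10l, Rpl39l and Rpl3l, copies that are known from testis or muscle, had 0, 0 and 0 to 9 counts and were not tested. For Rpl10l and Rpl39l, which were listed at 0 in the FPKM table too, a count of 0 in a library allows up to 3 reads there. For Rpl26 the 0 is no such limit, since its deposited FPKM was above 1 in 4 of the 8 libraries. The main genes of the same pairs were present, Rpl10 at 13.2 to 28.8 CPM, Rpl39 at 4.49 to 18.6 CPM and Rpl3 at 26.5 to 77.3 CPM, and of these Rpl3 rose after BDL in the libraries labelled HO-1 deleted (1.154 ± 0.27, adjusted p = 0.0088).

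Of the remaining pairs, Rpl7 was at 51.5 to 176 CPM and did not pass in the libraries labelled HO-1 deleted (1.08 ± 0.38, adjusted p = 0.0548), and Rpl7l1, a nucleolar protein that resembles it, was at 15.4 to 24.8 CPM (-0.30 ± 0.25, adjusted p = 0.381). Rps27l, the p53-inducible copy of Rps27, was at 7.83 to 12.4 CPM (0.24 ± 0.27, adjusted p = 0.544). Rps4x, the X-linked gene, rose from 21.4 and 19.7 to 32.7 and 56.7 CPM (1.10 ± 0.32, adjusted p = 0.025), and Rps4l, a transcribed processed pseudogene opposite Tmtc1, was at 4.36 and 4.55 against 4.95 and 7.31 CPM (0.41 ± 0.30, adjusted p = 0.339). None of the 3 divergent copies in these pairs passed.

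Among the genes whose share of the pool was steadiest over the 8 libraries were Rpl3, Rpl28, Rps28 and Rpl6, whose log2 shares had an SD of 0.14 to 0.16. It varied most, among tested genes, for Rpl32l (2.20), Rpl34 (1.08), Rps20, Rpl35a and Rpl29. Rpl34 had 5 to 55 counts per library, and Rpl29 and Rpl35a were lowest in wild-type BDL replicate 2, at 1.97 and 2.02 CPM.

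Many of these genes have near-identical processed copies in the mouse genome, among which reads can be split or dropped, and how the deposited counts treated such reads is not given in the sources used here. In GENCODE vM21 (mm10), the median gene shared 90.1% of its 50-base coding windows with at least 1 gene elsewhere, 29 genes shared all of them, and Rpl21 shared windows with 55 genes. After BDL in the libraries labelled HO-1 deleted, 6 of the 14 tested genes with under 50% shared windows rose, with a median log2 fold change of 1.04. Of the 35 with more, 19 rose (1.07), and of the 28 with all windows shared, 13 rose (0.86). The higher levels were thus measured in genes with small and with large shares of such windows, which is not a count of copies. The exons of 24 of the 83 genes overlap a snoRNA, and those of 18 overlap a gene on the other strand.

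Genes with and without a long pyrimidine run near a RefSeq start were among those that rose after BDL in the libraries labelled HO-1 deleted. Of 32 tested genes with such a run of at least 8 bases, 14 rose, with a median log2 fold change of 0.89, and of 25 with an entry and no such run 10 rose (0.80). Of 20 tested genes with no promoter entry, among them Rps20 and Rpl36, 14 rose (1.09). Rps18 and Rps10 carry the runs printed above and rose, Rplp0 has none near its RefSeq start and rose, and Rps6 carries one and did not pass. Runs were looked for only near RefSeq starts, so a run at a start not listed there would be missed.

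Rpl22, the gene that RiboTag tags and which was left out of the group, was at 44.3 and 84.7, 110 and 58.8, 30.1 and 41.9, and 56.6 and 73.8 CPM in the 4 groups and did not pass after BDL in either genotype (adjusted p = 0.503 and 0.107). Its paralog Rpl22l1, which can take its place in the ribosome, was at 5.59 and 6.40, 33.1 and 11.4, 4.40 and 5.17, and 11.9 and 17.5 CPM. It rose after BDL in the wild type (1.90 ± 0.42, adjusted p = 0.0115) and in the libraries labelled HO-1 deleted (1.58 ± 0.44, adjusted p = 0.0227). The 4 BDL libraries all stood above the 4 controls in Rpl22l1, while they overlapped in Rpl22.

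Counts of other genes of the pathway are read against the 15.1% of all genes that rose and the 12.4% that fell after BDL in the libraries labelled HO-1 deleted. Medians of these lists there were closer to 0 than the 1.003 of the ribosomal protein genes. Of 22 other translation genes with TOP mRNAs, 3 (13.6%) rose and none fell in edgeR, and 5 rose in DESeq2 (median log2 fold change 0.49). The 3 were the elongation factor subunits Eef1d (0.85 ± 0.23, adjusted p = 0.0163) and Eef1b2 (0.82 ± 0.28, adjusted p = 0.0488), and Fau (0.91 ± 0.29, adjusted p = 0.0374), which encodes a small-subunit protein fused to a ubiquitin-like one. In the wild type 0 of the 22 passed in edgeR or DESeq2, and the median was 0.18. An unadjusted p under 0.05 in edgeR was found there for 2 of the 22, against 4508 of all 14147 genes. Of 7 noncoding snoRNA host genes with TOP starts, such as Gas5 (-0.47 ± 0.23, adjusted p = 0.149), 0 passed in either genotype in edgeR or DESeq2, and 0 had an unadjusted p under 0.05. Their median in the libraries labelled HO-1 deleted was -0.47, of the other sign than that of the ribosomal protein genes.

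Of 40 ribosome assembly genes, 5 rose (12.5%) and 1 fell (2.5%) after BDL in the libraries labelled HO-1 deleted (median 0.30), both below the shares of all genes, and 1, the snoRNP protein gene Gar1, rose in the wild type (1.13 ± 0.31, adjusted p = 0.028, median 0.18). Those that rose included Eif6, which keeps new large subunits from joining small ones too early (14.0 and 17.4 against 39.8 and 45.4 CPM, 1.43 ± 0.22, adjusted p = 0.001), Ncl, encoding nucleolin (1.22 ± 0.31, adjusted p = 0.0145), Noc2l (0.88 ± 0.24, adjusted p = 0.0178) and the helicase Ddx21 (0.77 ± 0.22, adjusted p = 0.0221). Of 23 genes that control TOP mRNA translation, 2 (8.7%) rose and 3 (13%) fell in the libraries labelled HO-1 deleted (median -0.15). In the wild type, where 11.8% of all genes rose and 6.59% fell, 1 rose and 2 fell (-0.36). Rragd, a Rag GTPase that recruits mTORC1 to lysosomes, rose in both (3.53 ± 0.43, adjusted p = 0.0004, and 2.98 ± 0.42, adjusted p = 0.0006). Ddit4, an inhibitor of mTORC1, was at 23.7 and 44.7 CPM in wild-type controls and 7.83 and 8.03 after BDL (-2.11 ± 0.33, adjusted p = 0.0016). In the libraries labelled HO-1 deleted it was at 4.15 and 6.22 against 10.1 and 14.8 CPM (1.22 ± 0.34, adjusted p = 0.0219). The difference between these changes was 3.32 ± 0.48 with adjusted p = 0.12. Between genotypes, Ddit4 was lower in the controls labelled HO-1 deleted (-2.71 ± 0.34, edgeR adjusted p = 0.0043) and did not pass after BDL (0.62 ± 0.34, adjusted p = 0.5).

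Of 11 tested genes of ribosome stress and quality control, 2 rose (18.2%) and 1 fell (9.09%) in the libraries labelled HO-1 deleted and 1 rose and 1 fell in the wild type, counts close to the shares of all genes. The p53 target Cdkn1a rose in both genotypes (1.92 ± 0.45, adjusted p = 0.0132, and 2.62 ± 0.49, adjusted p = 0.0032), and the ribosome rescue factor Hbs1l fell in both (-1.18 ± 0.22, adjusted p = 0.0041, and -1.18 ± 0.23, adjusted p = 0.0036). The 78 genes of mitochondrial ribosomal proteins, which serve a separate ribosome, had medians of the other sign. Of these, 3 rose (3.85%) and 7 fell (8.97%, against 12.4% of all genes) after BDL in the libraries labelled HO-1 deleted, with a median of -0.27 against 1.003 in the cytosolic genes. In the wild type 0 rose in edgeR and in DESeq2 and 8 fell (10.3%, against 6.59% of all genes), with a median of -0.49 against 0.14. An unadjusted p under 0.05 in edgeR was found there for 29 of the 78, against 4508 of all 14147 genes. Mrpl3 fell in both genotypes (-0.79 ± 0.22, adjusted p = 0.0305, and -1.49 ± 0.24, adjusted p = 0.0013), and Mrpl51 rose in the libraries labelled HO-1 deleted (1.24 ± 0.34, adjusted p = 0.02).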

How the data were processed

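Ribosome-associated RNA of mouse liver was sequenced in 8 libraries, 2 per group. Per the labels' protocols, ribosomal RNA was removed with FastSelect and a strand-specific KAPA kit was used. STAR 2.7.3a, Cufflinks and mm10 are listed in the submitters' processing notes. The authors deposited whole-number read counts per gene symbol (24982 genes), the values tested here, and FPKM (24917 genes), which served for levels per length and as an alternative. The counting strand, the annotation and the handling of reads with several matches are not given in the sources used here. No per-sample column was left unmatched.

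Genes were kept by filterByExpr (14147), scaled by TMM and tested with edgeR 4.0.16 (R 4.3.3), with robust quasi-likelihood fits to all 8 libraries as 4 group means, in 7 contrasts. Benjamini-Hochberg adjustment ran over all genes tested, with calls at an adjusted p under 0.05. The fit was tested on simulated data. Libraries held 9807364 to 40892211 counts, of which 20495 to 133758 were in the ribosomal protein genes, which limits genes of low count. Alternatives were DESeq2 1.42.0, limma 3.58.1 on log2(FPKM + 1) or log2(FPKM + 0.1), 4 other scalings, 2 other filters, the Rn45s share as a covariate and left-out libraries. Start sequences came from RefSeq (GRCm38.p6) and gene models from GENCODE vM21.

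Named genes were, per contrast, up to 8 called per direction with the smallest adjusted p, or the 3 with the smallest p where none was called; the 5 highest and 5 lowest in FPKM; the 5 with most and least variable share; paralog pairs, stalk genes, Rpsa and untested genes. Rpl5, Rpl11, Rps6 and the genes with printed starts were added after their values were seen. Some genes that meet these rules are not reported here. Up to 4 genes per other list and contrast were eligible. The genes and all lists were chosen with earlier results of these data known.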

Additional observations from a re-analysis of the deposited data

How the results depend on the processing

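Counts here are of tested ribosomal protein genes past an adjusted p of 0.05 in either direction, and the causes of shifts were not tested. For BDL among libraries labelled HO-1 deleted, the reported count of 39 was 1 under total-count scaling, 1 in limma with FPKM + 1 or + 0.1 and 0 with FPKM + 1 unfiltered. In the wild type the reported 2 became 1 with the Rn45s covariate or a stricter filter, and 0 in the 3 FPKM fits and under total-count scaling. Another fit, whose wild-type count is not reported here, left out both wild-type BDL replicate 1 and BDL replicate 2 labelled HO-1 deleted. Its wild-type median log2 fold change was of the other sign, -0.32 against -0.02 over all genes, where the reported fit had 0.14. Averaged over genotypes, 41 became 15 with the covariate, 18 without both of these libraries, 2 under total-count scaling, and 4, 3 and 2 with FPKM + 1, + 0.1 and + 1 unfiltered. For the labelled deletion in controls, 0 became 1 in DESeq2 and 1 with no filter; after BDL it became 11 without both, and averaged over conditions 2. For the interaction 0 became 11 without both and 2 with no filter. Leaving out single libraries gave 1 to 16 in the wild type, 9 to 53 in the libraries labelled HO-1 deleted, 19 to 53 averaged over genotypes, 0 to 15 for the labelled deletion after BDL, 0 to 11 for the interaction and 0 to 2 for the averaged labelled deletion, with 0 throughout in controls. All other alternatives stayed within 1.5 times the reported counts. Fits without a single library leave 1 library in a group, and the shares of all genes past the threshold in them are not reported here.

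Relative to the median of all genes, the median of the ribosomal protein genes after BDL in the libraries labelled HO-1 deleted stayed between 0.75 and 1.26 under all 20 alternatives; in the wild type it ranged from -0.30 to 0.46, averaged over genotypes from 0.25 to 0.77, for the interaction from 0.42 to 1.20, and for the labelled deletion from -0.88 to -0.31 in controls, 0.04 to 0.85 after BDL and -0.33 to 0.29 averaged over conditions. Scaling libraries by total counts outside ribosomal RNA, chosen after seeing the data, gave 39 genes that rose. Of the 38 that rose as reported, 6 (among them Rpl13, Rpl36, Rplp0, Rps19 and Rps20) passed without each of the 8 libraries in turn. No paired analysis was possible because the labels carry no number that links libraries across groups. The BDL library with the fewest counts outside Rn45s (3254357) held 20495 counts of these genes, which limits single genes of low level.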
